A study of Mus musculus with 42 samples.

Results

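The data describe 42 genes of fatty acid oxidation and ketogenesis in mouse liver, out of 19758 genes listed in at least 1 of the 6 tables. The genes were taken by name from a list of the enzymes, carriers and associated factors of the pathway, and all 42 were listed and tested in each table. Livers came from 42 male C57BL/6J mice in 6 groups of 7. Wildtype (WT) littermates and mice with a CRISPR/Cas9 knockout (KO) of ChemR23, a receptor encoded by Cmklr1 and bound by the lipid mediator resolvin E1 (RvE1), were put at 6 weeks of age on a lean diet (10% of kcal from fat) or on a lard-based high fat diet (60% of kcal from fat) for 15 weeks. The lean mice and the obese control mice received vehicle (ethanol in PBS), and the WT obese+RvE1 and KO obese+RvE1 mice received 300 ng of RvE1, by intraperitoneal injection on 4 consecutive days. Livers were collected on day 5, after at least 4 hours of fasting. Whole liver RNA was measured, so that fewer cells of a type and less RNA per cell cannot be told apart. Libraries held 15992525 to 43841120 reads on listed genes.

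Fatty acids are activated to acyl-CoA by long-chain acyl-CoA synthetases and enter mitochondria as carnitine esters, where they are shortened in repeated rounds of dehydrogenation, hydration, a second dehydrogenation and thiolysis. Very long and branched chains are first shortened in peroxisomes by a parallel set of enzymes, and the products leave as carnitine esters. In the fasted liver much of the acetyl-CoA is turned into ketone bodies, and many of these genes are targets of the nuclear receptor PPARα. Of the 42 genes, 18 encode enzymes assigned here to mitochondria, 10 to peroxisomes and 5 to both. Slc25a20 encodes the mitochondrial carnitine-acylcarnitine carrier, and the 8 others are 4 acyl-CoA synthetases and 4 genes that respond to fasting or PPAR activators (Pdk4, Angptl4, Vnn1 and Pex11a).

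The stretches before the start of 4 of these genes are shown because, in the results given after them, Ehhadh and Mlycd fell in obese KO mice with no overlap between groups, Pecr rose in both genotypes, and Hadha and Hadhb start head to head and both fell in KO mice. Each is the 250 bases before the RefSeq start on GRCm38.p6, read 5′ to 3′ on the strand of the gene, with capitals at each CCAAT box, at each GC box (GGGCGG), at each nuclear receptor core (AGGTCA) and at each E-box (CACGTG), on either strand. They lie at chr16:21787835-21788084 (minus strand, Ehhadh), chr8:119394644-119394893 (plus strand, Mlycd), chr1:72284322-72284571 (minus strand, Pecr) and chr5:30154981-30155230 (minus strand, Hadha).
Ehhadh: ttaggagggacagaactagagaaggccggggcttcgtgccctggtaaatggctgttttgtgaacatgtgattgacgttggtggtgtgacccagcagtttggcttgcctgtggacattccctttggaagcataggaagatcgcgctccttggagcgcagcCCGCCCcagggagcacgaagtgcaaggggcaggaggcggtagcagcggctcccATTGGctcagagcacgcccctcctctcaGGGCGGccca
Mlycd: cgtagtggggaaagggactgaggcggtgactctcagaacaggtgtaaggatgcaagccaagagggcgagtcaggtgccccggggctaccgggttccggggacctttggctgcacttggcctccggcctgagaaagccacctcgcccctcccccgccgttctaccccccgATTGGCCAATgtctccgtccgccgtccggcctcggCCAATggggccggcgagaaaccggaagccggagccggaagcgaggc
Pecr: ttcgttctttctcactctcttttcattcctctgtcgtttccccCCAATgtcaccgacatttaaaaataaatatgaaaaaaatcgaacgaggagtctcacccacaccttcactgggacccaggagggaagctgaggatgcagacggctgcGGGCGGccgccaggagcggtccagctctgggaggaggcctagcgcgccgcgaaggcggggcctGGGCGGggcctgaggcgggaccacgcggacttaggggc
Hadha: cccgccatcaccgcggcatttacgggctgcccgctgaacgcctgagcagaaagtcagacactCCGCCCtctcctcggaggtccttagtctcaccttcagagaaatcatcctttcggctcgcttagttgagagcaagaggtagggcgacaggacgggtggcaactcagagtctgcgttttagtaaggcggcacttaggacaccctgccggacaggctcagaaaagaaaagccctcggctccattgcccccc
In the Ehhadh stretch 1 CCAAT and 2 GGGCGG matches were found, in the Mlycd stretch 3 CCAAT matches, the first 2 of them adjoining, in the Pecr stretch 1 CCAAT and 2 GGGCGG matches, and in the Hadha stretch 1 GGGCGG match. The starts of Hadha and Hadhb lie 273 bases apart on opposite strands, and this stretch lies between them. The KO diet call of Hadha had a limma adjusted p of 0.093. It was lost in 10 of 14 refits that each left out 1 mouse.

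A promoter was matched for 36 of the 42 genes. AGGTCA, the core of the element bound by PPARα with its partner, was in 5 of the 36 (Acadm, Acadvl, Cpt1a, Echs1 and Scp2), or 13.9%, against 13.8% of 27025 genes, and a direct repeat of it spaced by 1 base (DR1), with 1 base left free in each copy, was in 0 of the 36 and in 0.333% of all. CCAAT was in 44.4% of the 36 against 34.5% of all, GGGCGG in 63.9% against 32.9%, and CACGTG in 0 of the 36 against 6.05%. Both strands were searched, a match is a description of these letters only, and a window of 250 bases leaves out sites farther away or inside the gene. The median GC content of the window was 59.2% for the 36 genes and 52% for all.

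Levels between genes were compared per kilobase of the longest annotated transcript, in WT lean mice. Scp2, which encodes sterol carrier protein and a peroxisomal thiolase, was the highest of the 42 at 20233 ± 3651 normalised counts per kilobase (SD, n = 7). Acaa1b, a peroxisomal thiolase, followed at 9328 ± 2235 per kilobase, then Acaa2 at 7772 ± 874 and Ehhadh at 7034 ± 3207 per kilobase. The ranges of these last 3 genes overlapped. Acad10, an acyl-CoA dehydrogenase family member, was the lowest at 80.3 ± 15.2 per kilobase, next to Acsl3 at 116 ± 19.1 and Acox3 at 138 ± 12.0 per kilobase, with ranges that overlapped between neighbours in this order. Acaa1a and Acaa1b share 96% of 1450 aligned transcript bases, with an identical run of 327 bases, so the split of reads between both genes is uncertain.

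The 42 genes differed in how far mice of a group varied. The within-group SD of log2(normalised count + 1), pooled over both diet tables, had a median of 0.23 over the 42 genes and 0.32 over all genes tested. Pdk4, which encodes a kinase that shuts off pyruvate dehydrogenase, varied most, with an SD of 1.43. It was followed by Angptl4 at 0.72, Vnn1 at 0.70, Ehhadh at 0.68, Crat at 0.60 and Acsl4 at 0.57. The mitochondrial dehydrogenase genes Acadvl at 0.11 and Acadl at 0.13 varied least. Whether counting used strand was not given, and 42.9% of the exonic bases of Acadvl lie under Dvl2 on the opposite strand, so its counts are uncertain. The same holds to a lesser extent for Bdh1 (13.7% under Gm15743), Pecr (11.5% under D230017M19Rik) and Acaa1b (11.4% under Dlec1). It also holds for Acsl1 (9.91% under Gm45244), Acsl5 (8.31% under Zdhhc6) and Crat (7.63% under Gm16323), and smaller overlaps are not listed. In WT lean mice, the highest mouse held 31.6 times the Pdk4 count of the lowest, and in KO lean mice 39.8 times, whereas the median ratio over the 42 genes was 1.53 in WT lean and 1.67 in KO lean mice.

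The first question was how the high fat diet changed these genes in WT mice. In WT obese against WT lean mice, 5 of the 42 genes fell (Ehhadh, Acsl5, Crat, Pdk4 and Acsl1), 2 rose (Pecr and Hadh) and 35 did not pass an adjusted p under 0.1 in limma on log2(normalised count + 1). Over all 14012 genes tested, 2.61% were lower and 3.65% were higher. The median Log2 FC was -0.05 over the 42 genes and 0.003 over all genes tested, and 50% of the 42 genes had a positive Log2 FC against 50.5% of all genes. At an unadjusted p under 0.05 there were 19 of the 42 genes, or 45.2%, against 18.2% of all genes tested.

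Ehhadh encodes the peroxisomal bifunctional enzyme, which hydrates enoyl-CoA and oxidises the product. Its normalised counts were 5406 to 8809 in WT obese mice (median 7017) and 10109 to 39016 in WT lean mice (median 19796). Every WT obese mouse lay below every WT lean mouse, and the Log2 FC was -1.48 ± 0.24 (SE, limma adjusted p = 0.0029). Crat, the carnitine acetyltransferase of mitochondria and peroxisomes, had 458 to 2266 counts in WT obese mice (median 874) and 1730 to 4135 in WT lean mice (median 2066). The 2 groups overlapped, with 5 of 7 WT obese mice below the lowest lean mouse, and the Log2 FC was -1.21 ± 0.30 (SE, limma adjusted p = 0.036).

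Acsl5 and Acsl1 encode long-chain acyl-CoA synthetases. Acsl5 had 1618 to 3100 counts in WT obese mice (median 2389) and 2610 to 4432 in WT lean mice (median 3464), with a Log2 FC of -0.60 ± 0.15 (SE, limma adjusted p = 0.033) and 6 of 7 obese mice below the lean range. Acsl1 had 17196 to 29031 counts in WT obese mice (median 24313) and 25933 to 45487 in WT lean mice (median 33973), with a Log2 FC of -0.54 ± 0.17 (SE, limma adjusted p = 0.090). All 4 acyl-CoA synthetase genes had a negative Log2 FC, from -0.84 to -0.45. Pdk4 had 105 to 638 counts in WT obese mice (median 207) and 129 to 4070 in WT lean mice (median 789). Its groups overlapped, with 2 of 7 obese mice below the lean range, and its Log2 FC was -2.10 ± 0.64 (SE, limma adjusted p = 0.087). Leaving out 1 mouse at a time lost the Pdk4 call in 10 of 14 refits and the Acsl1 call in 9.

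Pecr, a peroxisomal enoyl-CoA reductase that acts in chain elongation, had 1593 to 2422 counts in WT obese mice (median 2000) and 1319 to 1662 in WT lean mice (median 1438). Its Log2 FC was 0.43 ± 0.10 (SE, limma adjusted p = 0.019), and 6 of 7 obese mice were above the lean range. Hadh, the mitochondrial short-chain 3-hydroxyacyl-CoA dehydrogenase, had 7660 to 11021 counts in WT obese mice (median 10024) and 5602 to 8656 in WT lean mice (median 7325). Its Log2 FC was 0.42 ± 0.12 (SE, limma adjusted p = 0.063). The rises of Pecr and Hadh were thus smaller than the falls of Ehhadh and Crat in Log2 FC. When mice that share the number opening their identifier were treated as a random block, 3 of the 42 genes were called, Ehhadh, Pecr and Crat (limma adjusted p = 0.015, 0.088 and 0.090), and at equal read totals 4 were called.

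The same diet question was then asked in KO mice. In KO obese against KO lean mice, 10 of the 42 genes fell, 4 rose and 28 did not pass an adjusted p under 0.1. Over all 14213 genes tested, 12.1% were lower and 12% were higher, so that 10 genes of 42 stood against 12.1% and 4 genes of 42 against 12%. The median Log2 FC was -0.17 over the 42 genes and -0.002 over all genes tested. A positive Log2 FC was found for 8 of the 42 genes, or 19.0%, against 49.8% of all genes. The plot of normalised counts by mouse shows 6 of these genes, with lean and obese mice of both genotypes side by side.

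**Figure D1:**
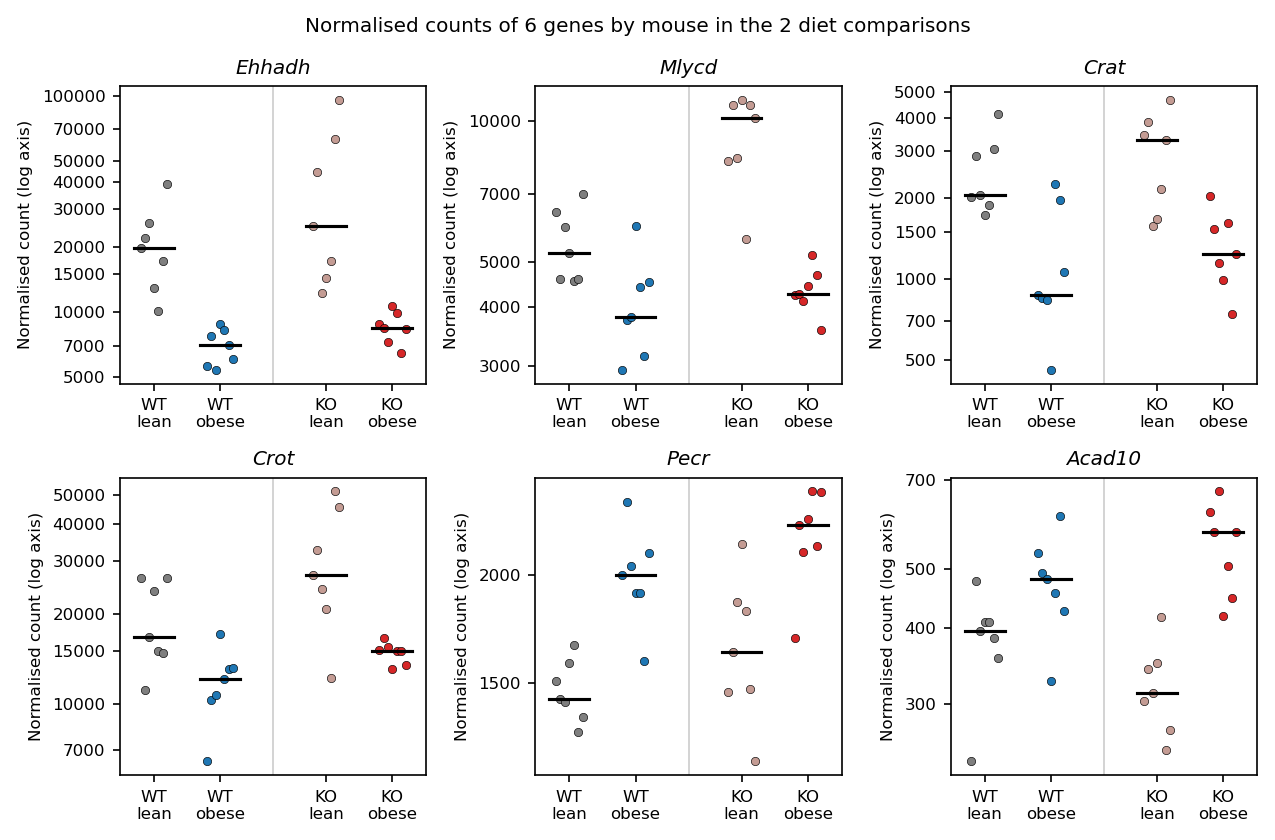
Normalised counts (log axis) of Ehhadh, Mlycd, Crat, Crot, Pecr and Acad10 in each mouse, with 7 mice per group and a bar at the median; the WT groups and the KO groups come from separately normalised tables, divided by the grey line. Ehhadh is lower in all 7 obese mice than in any lean mouse of the same genotype, and KO lean mice spread from 12288 to 95970.

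Of 6 genes grouped here under the carnitine shuttle, 4 fell in KO mice, none rose and the median Log2 FC was -0.61. This group also holds Mlycd, Crot and Crat, which are not steps of fatty acid entry into mitochondria and had the largest falls. Among the genes of that entry route, only Cpt2 was called, with a Log2 FC of -0.31. The Cpt2 call was lost in the blocked fit. Cpt1a and Slc25a20 were not called, with Log2 FC of -0.08 and -0.25. Mlycd encodes malonyl-CoA decarboxylase, which removes the inhibitor of carnitine palmitoyltransferase 1. It had 3574 to 5172 counts in KO obese mice (median 4274) and 5590 to 11131 in KO lean mice (median 10185). The groups did not overlap, and its Log2 FC was -1.07 ± 0.15 (SE, limma adjusted p = 0.0019). Crot, the peroxisomal carnitine octanoyltransferase, had 13118 to 16610 counts in KO obese mice (median 15060) and 12213 to 51612 in KO lean mice (median 26960). All 7 KO obese mice lay inside the wide range of the KO lean mice, and the Log2 FC was -0.91 ± 0.25 (SE, limma adjusted p = 0.024).

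Crat had 740 to 2035 counts in KO obese mice (median 1239) and 1577 to 4670 in KO lean mice (median 3308), a Log2 FC of -1.11 ± 0.26 (SE, limma adjusted p = 0.014). Its groups overlapped, with 5 of 7 KO obese mice below the lowest lean mouse. Cpt2, the inner membrane carnitine palmitoyltransferase, had 4194 to 5645 counts in KO obese mice (median 4441) and 4725 to 7433 in KO lean mice (median 5740), a Log2 FC of -0.31 ± 0.12 (SE, limma adjusted p = 0.079). Cpt1a, which controls entry of fatty acids into mitochondria, was not called in either genotype. It had 12396 to 17819 counts in KO obese mice (median 15757) and 10824 to 21526 in KO lean mice (median 16756), a Log2 FC of -0.08 ± 0.16. In WT mice Cpt1a had 9596 to 16973 counts in the obese group (median 14857) and 13351 to 19657 in the lean group (median 18193), a Log2 FC of -0.40 ± 0.15 (SE, limma adjusted p = 0.17).

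Among the peroxisomal cycle genes, Ehhadh fell in KO mice as well, with 6486 to 10657 counts in KO obese mice (median 8484) and 12288 to 95970 in KO lean mice (median 25070). The 2 groups did not overlap, and the Log2 FC was -1.81 ± 0.38 (SE, limma adjusted p = 0.0084). The other called genes of the peroxisomal cycle rose. Pecr had 1689 to 2495 counts in KO obese mice (median 2278) and 1220 to 2171 in KO lean mice (median 1628), a Log2 FC of 0.43 ± 0.13 (SE, limma adjusted p = 0.033). Scp2 had 51520 to 76217 counts in KO obese mice (median 70828) and 41082 to 58589 in KO lean mice (median 55107), a Log2 FC of 0.41 ± 0.15 (SE, limma adjusted p = 0.068). Acox3, an acyl-CoA oxidase of branched chains, had a Log2 FC of 0.25 ± 0.10 (SE, limma adjusted p = 0.095). Acaa1b was not called in either genotype, with 9776 to 19019 counts in KO obese mice (median 14378) against 13373 to 36438 in KO lean mice (median 21107), and 9494 to 15123 in WT obese mice (median 14861) against 12154 to 22026 in WT lean mice (median 15247).

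Of the mitochondrial enzymes, 4 of 18 fell and 1 rose in KO mice. Hadha and Hadhb encode the alpha and beta subunits of the trifunctional protein, which carries out the last 3 steps of the cycle on long chains. Hadhb had 1576 to 2806 counts in KO obese mice (median 2007) and 2140 to 4749 in KO lean mice (median 3524), with 4 of 7 obese mice below the lean range and a Log2 FC of -0.66 ± 0.19 (SE, limma adjusted p = 0.029). Hadha had a Log2 FC of -0.28 ± 0.11 (SE, limma adjusted p = 0.093). In WT mice, the Log2 FC was -0.25 for Hadhb and -0.32 for Hadha, neither called. Decr1, which reduces 2,4-dienoyl-CoA from unsaturated fatty acids, had 2694 to 3291 counts in KO obese mice (median 3103) and 3254 to 4691 in KO lean mice (median 3619). Its Log2 FC was -0.35 ± 0.10 (SE, limma adjusted p = 0.029), and 6 of 7 obese mice were below the lean range.

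Acad10 was the mitochondrial enzyme gene that rose. It had 418 to 671 counts in KO obese mice (median 575) and 251 to 417 in KO lean mice (median 313), 2 ranges that did not overlap. Its Log2 FC was 0.76 ± 0.13 (SE, limma adjusted p = 0.0038). In WT mice the same gene had 327 to 611 counts in the obese group (median 480) and 241 to 478 in the lean group (median 395), a Log2 FC of 0.32 ± 0.15 (SE, limma adjusted p = 0.28). None of the 3 electron transfer genes was called in either genotype, and Bdh1, the D-beta-hydroxybutyrate dehydrogenase and the only ketone body gene of the 42, was not called either. Bdh1 had 5254 to 7791 counts in KO obese mice (median 7294) and 4924 to 8351 in KO lean mice (median 6755). In WT mice it had 4080 to 6333 counts in the obese group (median 5510) and 3745 to 6922 in the lean group (median 5485), with a Log2 FC of 0.06 ± 0.14.

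Acsl5 also fell in KO mice, with 1868 to 2953 counts in KO obese mice (median 2549) and 2606 to 3328 in KO lean mice (median 3056), a Log2 FC of -0.33 ± 0.11 (SE, limma adjusted p = 0.049). Angptl4, an inhibitor of lipoprotein lipase, had 3194 to 10431 counts in KO obese mice (median 4930) and 6147 to 15032 in KO lean mice (median 10957), a Log2 FC of -0.81 ± 0.27 (SE, limma adjusted p = 0.053). Both pairs of ranges overlapped, with 4 of 7 obese mice below the lean range for each gene. Pdk4 had 220 to 1732 counts in KO obese mice (median 440) and 263 to 10464 in KO lean mice (median 936), a Log2 FC of -1.18 ± 0.66 that was not called (limma adjusted p = 0.23). Pex11a, a factor of peroxisome division, had 2113 to 3103 counts in KO obese mice (median 2477) against 2046 to 3686 in KO lean mice (median 2541), and 1169 to 3121 counts in WT obese mice (median 1872) against 1402 to 2367 in WT lean mice (median 1574). It was called in neither genotype.

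**Figure D2:**
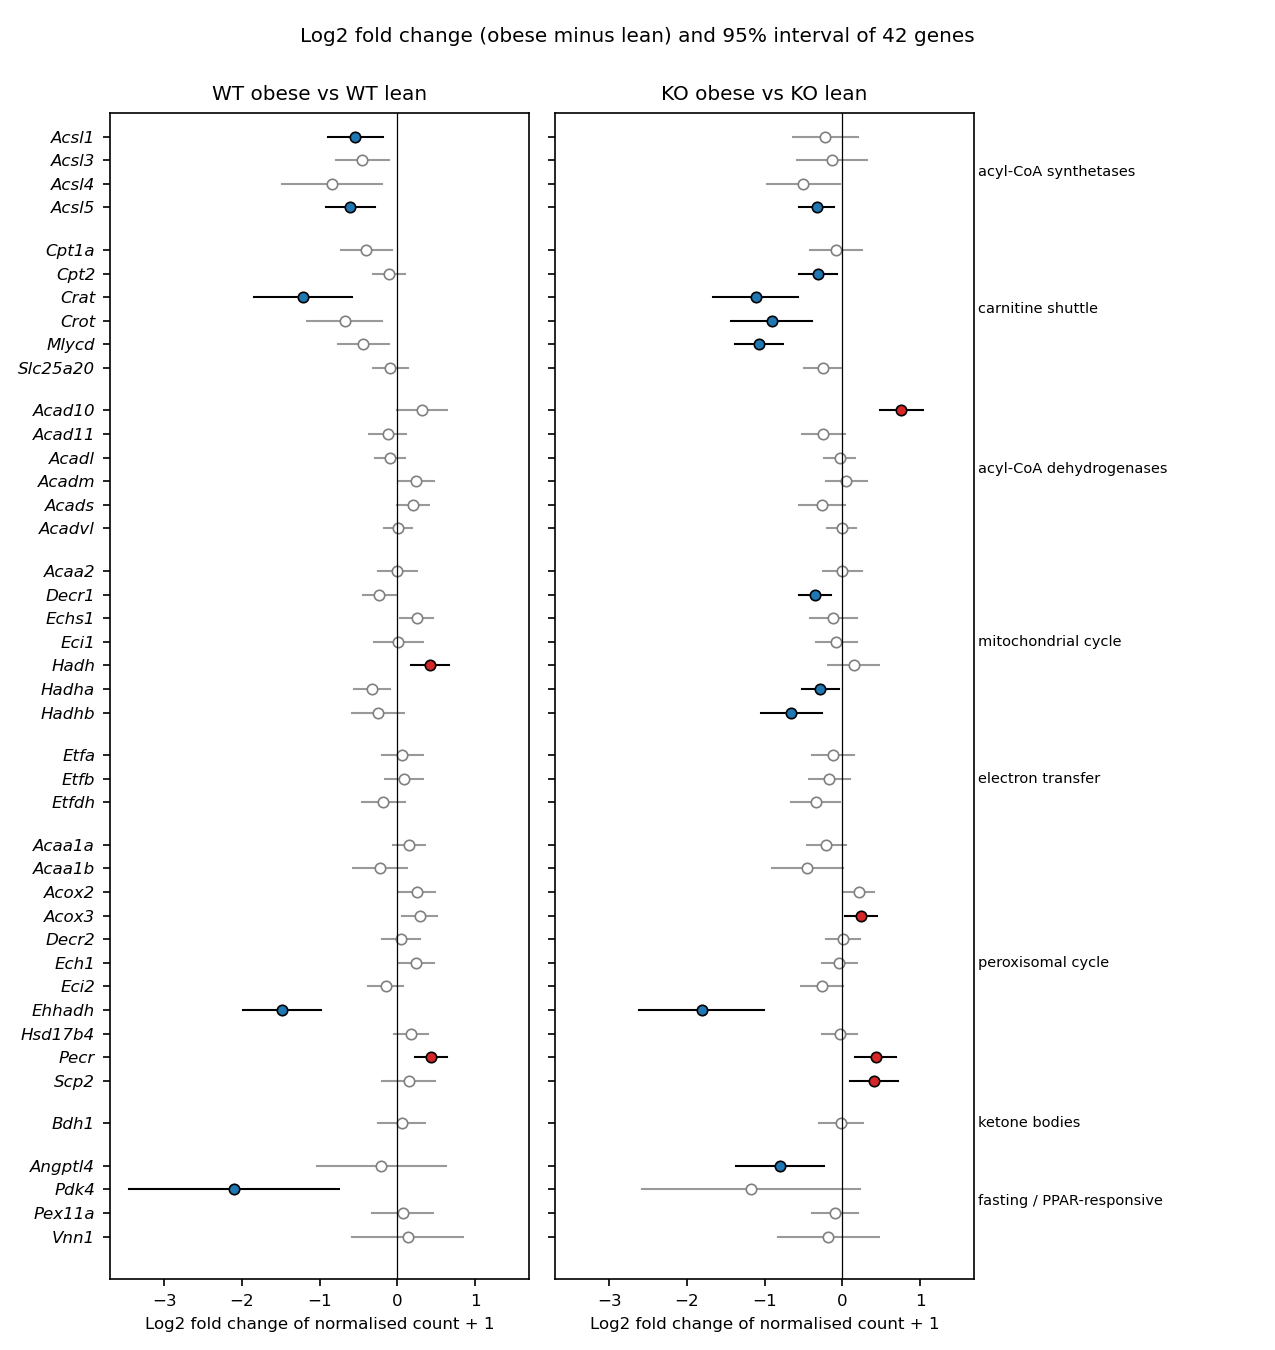
Log2 fold change (obese minus lean) of normalised count + 1 for 42 genes in WT (left) and KO mice (right), ordered by role, with 95% intervals from limma; filled points have an adjusted p under 0.1 (red higher, blue lower), open points do not. Filled points are 7 in WT and 14 in KO mice, and Ehhadh and Crat lie below -1 in both.

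In the plot of fold changes by role, 4 genes were called in both genotypes, each in the same direction: Ehhadh, Crat and Acsl5 lower and Pecr higher. In the fit blocked on the identifier number, Acsl5 lost its call in both genotypes (limma adjusted p = 0.14 in each), and the other 3 genes were called in both. A further 3 genes were called in WT mice alone and 10 in KO mice alone, which does not show that the effect of diet differed. The share of all genes called in both genotypes, or in 1 alone, was not computed, so these counts are a description only. When the difference between the 2 diet effects was tested, 0 of the 42 genes passed an adjusted p under 0.1 in limma, against 0.00718% of 13924 genes tested. At an unadjusted p under 0.05 there were 5 of the 42 genes, or 11.9%, below the 18.3% of all genes. edgeR called 0 of the 42 genes, and DESeq2 called 2, beside 9.38% of all genes that it tested. The 5 smallest p-values were those of Mlycd, Acads, Acaa1a, Acad10 and Echs1. For Mlycd the Log2 FC in KO mice minus that in WT mice was -0.63 ± 0.22 (SE, limma adjusted p = 0.15), and in WT mice Mlycd itself had a Log2 FC of -0.44 ± 0.15 (SE, limma adjusted p = 0.14). Acads, the short-chain dehydrogenase, had a difference of -0.46 ± 0.17 and the thiolase gene Acaa1a one of -0.36 ± 0.15 (SE, limma adjusted p = 0.17 and 0.20). Acad10 had a difference of 0.44 ± 0.20, and Echs1, the mitochondrial enoyl-CoA hydratase, one of -0.36 ± 0.17 (SE, limma adjusted p = 0.24 and 0.26). 

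In the KO diet comparison, scaling to equal read totals moved the median Log2 FC of all genes to 0.14. That of the 42 genes moved from -0.17 to -0.03, so the share of positive values given above depends on the scaling. There 5 of the 42 genes were called higher and 6 lower, beside 22.4% of all genes. Signs were checked only for genes called in a diet comparison or reported in both. Of these, Cpt1a, Bdh1 and Pex11a, none of them called, turned positive. No called gene changed sign under that scaling. In the fit blocked on that number, 8 of the 14 genes were called, 2 higher and 6 lower, beside 7.44% of all genes. The 6 genes that lost their call there were Acsl5, Angptl4, Hadha, Scp2, Acox3 and Cpt2, with limma adjusted p-values of 0.14 to 0.20. Markers of Kupffer cells, the resident macrophages of the liver, were also lower in KO obese mice: 7 of 9 tested fell, and their summed normalised count was 5660 to 7946 in KO obese and 10335 to 22100 in KO lean mice, with none of the 9 at 0 in every mouse of a group. Their part in the result was not tested. Of 8 hepatocyte markers, 1 rose and 1 fell, and of 14 clock genes, 4 rose and 1 fell. In WT mice 0 of 9 Kupffer cell markers were called, and of 14 clock genes 3 rose and 2 fell.

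Other genes of the pathway and its surroundings, listed by their role, were read in the same fits. These lists were chosen with earlier results of these data known, so their counts are a description only. Over all genes tested, 3.65% rose and 2.61% fell in WT obese mice, and 12% rose and 12.1% fell in KO obese mice. Of 12 further PPARα targets, 5 fell and 1 rose in WT obese mice and 10 fell and 1 rose in KO obese mice, and all 6 genes called in WT mice were also called in KO mice. Their median Log2 FC was -1.03 in WT and -0.98 in KO mice. In WT mice Cyp4a31, a fatty acid omega-hydroxylase, had a Log2 FC of -2.76 ± 0.43, the hepatokine gene Fgf21 -1.68 ± 0.33, Cyp4a10 -1.60 ± 0.43, the acyl-CoA thioesterase gene Acot1 -1.39 ± 0.26 and the lipid droplet gene Plin2 -1.02 ± 0.20 (SE). The gene that rose, in both genotypes, was Cd36, a fatty acid uptake receptor, with a Log2 FC of 1.59 ± 0.33 in WT and 1.46 ± 0.36 in KO mice.

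Of 26 further genes of oxidation and ketone body handling, 2 rose and 3 fell in WT obese mice, and 3 rose and 4 fell in KO obese mice. Beside these and the next counts, the shares of all genes tested were 3.65% higher and 2.61% lower in WT mice. In KO mice they were 12% higher and 12.1% lower. Slc22a5, the plasma membrane carnitine transporter, had a Log2 FC of -0.57 ± 0.14 in WT and -0.93 ± 0.19 in KO mice, and Hacl1, the peroxisomal alpha-oxidation lyase, had -0.70 ± 0.21 and -0.97 ± 0.24 (SE). Of 14 peroxisome biogenesis genes tested, none was called in WT mice, and 1 rose and 3 fell in KO mice. Of 18 tricarboxylic acid cycle and mitochondrial mass genes, 1 rose and 0 fell in WT mice, and 1 rose and 3 fell in KO mice. The median Log2 FC of the peroxisome biogenesis genes was 0.04 in WT and -0.11 in KO mice, and of the mitochondrial genes -0.005 and -0.08. Fasting-responsive genes gave 1 higher and 1 lower of 10 in WT mice and 0 in KO mice.

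The mitochondrial and the peroxisomal enzymes were then contrasted within each mouse, as the mean log2(normalised count + 1) of 18 mitochondrial genes minus that of 10 peroxisomal genes. No test was made of this summary over chosen genes. In WT mice the difference was -0.77 to -0.55 in the lean group (median -0.66) and -0.64 to -0.48 in the obese group (median -0.56), so that the groups overlapped and the group mean was higher by 0.09 in obese mice, against a pooled SD of 0.07 between mice. The mean of the mitochondrial genes changed by 0.003 and that of the peroxisomal genes by -0.09 on the log2 scale, while the median Log2 FC was 0.01 over the mitochondrial and 0.15 over the peroxisomal genes. The mean and the median of the peroxisomal genes thus had opposite signs, with Ehhadh at -1.48 and 7 of 10 genes positive. Counting the 5 enzymes of both compartments as peroxisomal raised the difference to 0.17.

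In KO mice the same quantity was -0.95 to -0.51 in the lean group (median -0.70) and -0.68 to -0.52 in the obese group (median -0.60). The obese group mean was higher by 0.107, less than the pooled SD of 0.113 between mice, and by 0.218 when the 5 enzymes of both compartments were counted as peroxisomal. The mean of the mitochondrial genes changed by -0.10 and that of the peroxisomal genes by -0.21, with medians of -0.10 and -0.01. Of the called genes in KO mice, the peroxisomal set held 3 that rose and 2 that fell, and the mitochondrial set 1 that rose and 4 that fell. In the other 4 comparisons the group means of this quantity differed by -0.05 to -0.02, each less than its pooled SD.

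**Figure D3:**
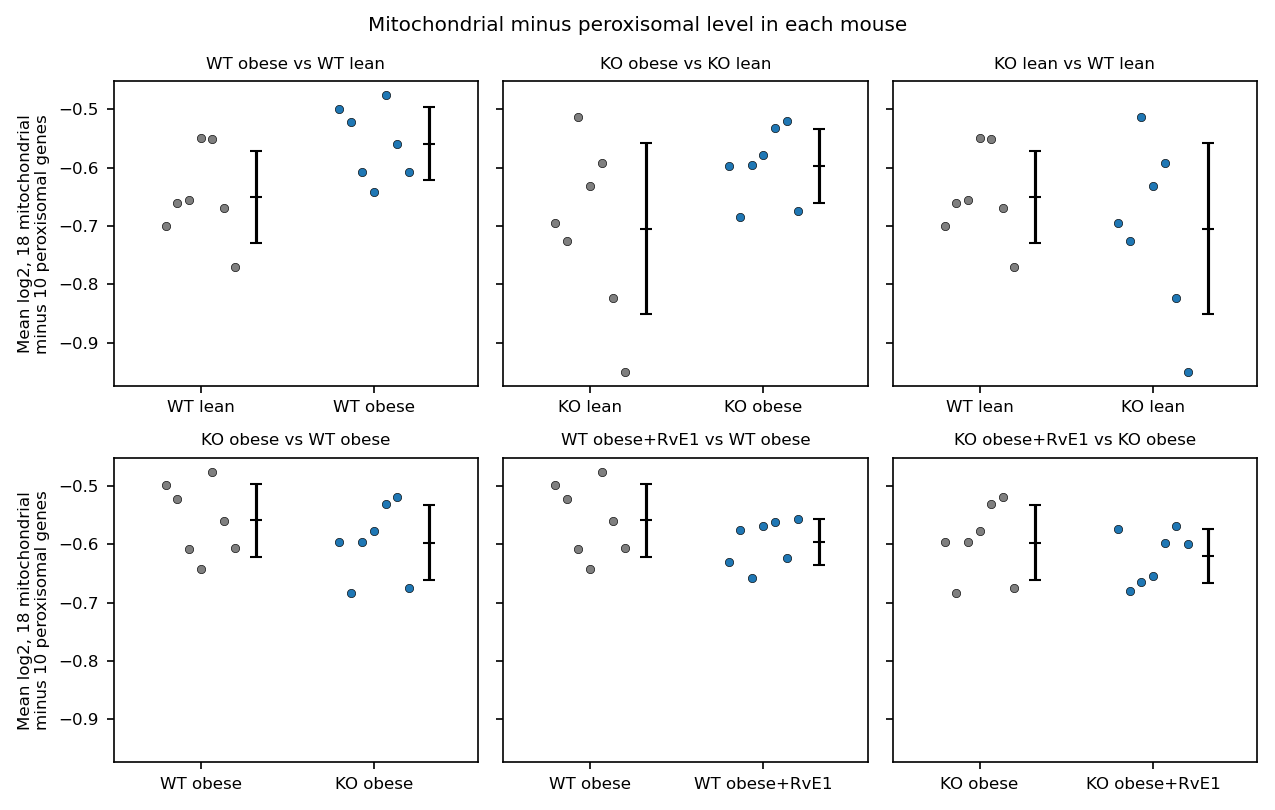
Mean log2(normalised count + 1) of 18 mitochondrial genes minus that of 10 peroxisomal genes in each mouse, one panel per comparison with its own table, with 7 mice per group; bars beside the points are mean ± SD. The groups overlap in every panel, and KO lean mice spread most, from -0.95 to -0.51.

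The genotype comparison on the lean diet asked whether loss of ChemR23 changed these genes without obesity. Cmklr1, the targeted gene, had 9.72 to 22.6 normalised counts in KO lean mice and 40.8 to 114 in WT lean mice, with no overlap. In KO lean against WT lean mice, 3 of the 42 genes rose (Mlycd, Acads and Acaa1a), 3 fell (Acsl5, Acad10 and Acsl3) and 36 were not called. Over all 13031 genes tested, 8% were higher and 8.3% were lower, close to the 3 of 42 in each direction. The median Log2 FC was 0.13 over the 42 genes and -0.0004 over all genes. The same lean mice served in the diet comparisons.

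Mlycd had 5093 to 10093 counts in KO lean mice (median 9241) and 4761 to 7257 in WT lean mice (median 5445), with 6 of 7 KO mice above the WT range and a Log2 FC of 0.56 ± 0.16 (SE, limma adjusted p = 0.050). Acads had 3366 to 7236 counts in KO lean mice (median 4325) and 2556 to 3537 in WT lean mice (median 3167), a Log2 FC of 0.49 ± 0.15 (SE, limma adjusted p = 0.055). Acaa1a had 3397 to 4922 counts in KO lean mice (median 3749) and 2904 to 3862 in WT lean mice (median 3043), a Log2 FC of 0.31 ± 0.11 (SE, limma adjusted p = 0.090). The ranges of all 3 genes overlapped, for Mlycd and Acads through 1 KO mouse.

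Acsl5 had 2363 to 3021 counts in KO lean mice (median 2777) and 2715 to 4597 in WT lean mice (median 3579), a Log2 FC of -0.41 ± 0.12 (SE, limma adjusted p = 0.058). Acad10 had 228 to 380 counts in KO lean mice (median 284) and 251 to 496 in WT lean mice (median 411), a Log2 FC of -0.43 ± 0.15 (SE, limma adjusted p = 0.072). Acsl3 had 194 to 593 counts in KO lean mice (median 315) and 349 to 614 in WT lean mice (median 471), a Log2 FC of -0.56 ± 0.19 (SE, limma adjusted p = 0.075). All 6 calls were lost in the blocked fit, where limma adjusted p-values were 0.15 to 0.19, and none of the 42 genes passed a stricter adjusted p of 0.05. Kupffer cell markers moved here too: 8 of 9 tested rose, with a summed normalised count of 9378 to 20040 in KO lean and 3964 to 8525 in WT lean mice, and their part in the result was not tested. At equal read totals the median Log2 FC of all genes moved to -0.12 and that of the 42 genes to 0.009. There 4 of the 42 genes were called, all lower, beside 16.5% of all genes.

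Between the obese genotypes none of the 42 genes was called. In KO obese against WT obese mice, limma called 0 of the 42 genes, against 0.00706% of 14162 genes higher and 0.00706% lower. At an unadjusted p under 0.05 there were 0 of the 42 genes, against 2.25% of all genes. With edgeR and DESeq2 0 of the 42 were called, beside 0.0141% and 0.0212% of all genes. Log2 FC ran from -0.27 to 0.74, and the 95% interval lay within 1.5-fold in either direction for 35 of the 42 genes, and reached past 1.5-fold for the other 7. The smallest p-values were those of Etfb, Pdk4, Pex11a, Acadl and Acsl3. Etfb, a subunit of the electron transfer flavoprotein, had 2775 to 4301 counts in KO obese mice (median 2991) and 3095 to 4978 in WT obese mice (median 3938), a Log2 FC of -0.27 with a 95% interval of -0.54 to 0.0007. Of its exonic bases, 53% are shared with Gm45233 on the same strand, so its counts are uncertain.

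Pdk4 had 212 to 1662 counts in KO obese mice (median 422) and 116 to 700 in WT obese mice (median 229), a Log2 FC of 0.74 with a 95% interval of -0.24 to 1.72. Pex11a had 2037 to 3022 counts in KO obese mice (median 2401) and 1286 to 3422 in WT obese mice (median 2072), a Log2 FC of 0.25. Acadl, the long-chain dehydrogenase, had 3472 to 4364 counts in KO obese mice (median 3751) and 3155 to 3830 in WT obese mice (median 3623), a Log2 FC of 0.10. Acsl3 had 226 to 469 counts in KO obese mice (median 305) and 255 to 519 in WT obese mice (median 384), a Log2 FC of -0.24. The groups overlapped for each of these 5 genes.

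The last question was whether RvE1 changed these genes in obese mice. In WT obese+RvE1 against WT obese mice, limma called 0 of the 42 genes and 0% of 13085 genes in either direction. edgeR and DESeq2 called 0 of the 42 as well, beside 0.00764% and 0.191% of all genes. At an unadjusted p under 0.05 there were 7 of the 42 genes, all higher, or 16.7% against 6.08% of all genes tested. The median Log2 FC was 0.10 over the 42 genes and 0.005 over all genes, and 33 of 42 were positive, or 78.6% against 51.2% of all genes.

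Ehhadh had 8885 to 12333 counts in WT obese+RvE1 mice (median 11097) and 6381 to 10337 in WT obese mice (median 8221), with 5 of 7 treated mice above the control range and a Log2 FC of 0.41 ± 0.12 (SE, limma adjusted p = 0.77). Vnn1, a pantetheinase gene, had 4145 to 6598 counts in treated mice (median 5812) and 1327 to 6664 in controls (median 3577), a Log2 FC of 0.83 ± 0.28 (SE, limma adjusted p = 0.77). Acadm, the medium-chain dehydrogenase, had 6975 to 9591 counts in treated mice (median 7751) and 5550 to 7622 in controls (median 6785), a Log2 FC of 0.24. Cpt2 had 4850 to 6773 counts in treated mice (median 5645) and 4039 to 5260 in controls (median 5079), a Log2 FC of 0.23. Slc25a20 had 2909 to 3793 counts in treated mice (median 3192) and 2332 to 3300 in controls (median 2729), a Log2 FC of 0.21. All of these ranges overlapped. For 33 of the 42 genes the 95% interval lay within 1.5-fold in either direction, and Ehhadh, at 0.15 to 0.68, was not among them.

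In KO obese+RvE1 against KO obese mice, limma, edgeR and DESeq2 called 0 of the 42 genes. Of 14207 genes in either direction, limma and edgeR called 0% and DESeq2 0.12%. At an unadjusted p under 0.05 there were 3 of the 42 genes, 1 higher and 2 lower, or 7.14% against 8.30% of all genes. Acsl4, an acyl-CoA synthetase that prefers arachidonic acid, had 1038 to 3363 counts in treated mice (median 1410) and 1798 to 5448 in controls (median 2137), a Log2 FC of -0.71 ± 0.27 (SE, limma adjusted p = 0.56). Crat had 1013 to 2220 counts in treated mice (median 2085) and 747 to 2074 in controls (median 1250), a Log2 FC of 0.52. Acox3 had 544 to 794 counts in treated mice (median 720) and 739 to 892 in controls (median 769), a Log2 FC of -0.22. Eci1 and Ehhadh, the other genes of the 5 smallest p-values, had Log2 FC of 0.21 and 0.34. Eci1, an enoyl-CoA isomerase, had 2005 to 3189 counts in treated mice (median 2477) and 1691 to 2416 in controls (median 2295). Ehhadh had 7375 to 21189 counts in treated mice (median 9439) and 6547 to 10741 in controls (median 8566).

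The difference between the 2 RvE1 effects was tested as well. None of the 42 genes was called by limma, edgeR or DESeq2, and limma called 0% of 13059 genes tested. At an unadjusted p under 0.05 there were 0 of the 42 genes, against 2.38% of all genes. The 5 smallest p-values were those of Acsl1, Pdk4, Hsd17b4, Pex11a and Angptl4. Their effect in KO mice minus that in WT mice was -0.32 ± 0.19 for Acsl1, -1.15 ± 0.71 for Pdk4, -0.16 ± 0.11 for Hsd17b4, -0.27 ± 0.21 for Pex11a and -0.64 ± 0.49 for Angptl4 on the log2 scale (SE). Of the 42 genes, 35 had a more negative value in KO mice and 7, or 16.7%, a more positive one, against 46.7% of all genes tested. The median was -0.09 over the 42 genes and -0.02 over all genes.

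Across the 6 comparisons, 22 of the 42 genes were never called, 14 were called once, 5 were called in 2 comparisons and 1, Acsl5, in 3. No such tally was made over all genes, so these counts are a description only. The obese genotype comparison and the RvE1 comparisons in WT and KO mice called 0.0141%, 0% and 0% of all genes. The diet and lean genotype comparisons share the lean mice. All 3 calls of Acsl5 were lost in the blocked fit (limma adjusted p = 0.14, 0.14 and 0.16). The plot of all 6 comparisons shows these calls gene by gene, with the called genes lying in the 2 diet columns and the lean genotype column.

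**Figure D4:**
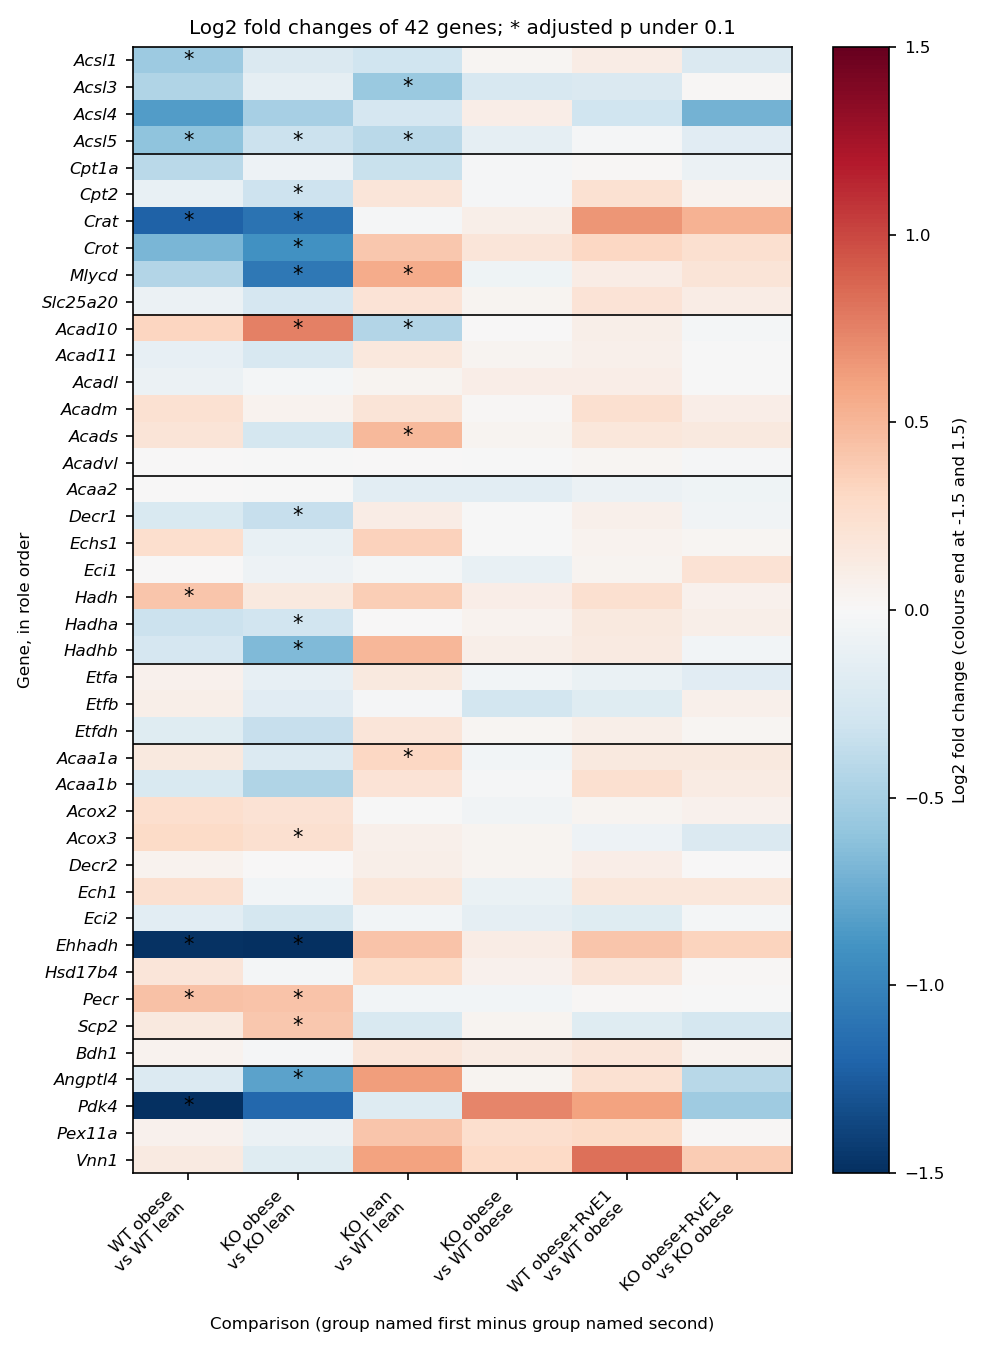
Log2 fold change of 42 genes (rows, in role order, divided by black lines) in 6 comparisons (columns), as colour from blue (lower) to red (higher), with the colour scale ending at -1.5 and 1.5; a star marks an adjusted p under 0.1 in limma. Stars number 7, 14 and 6 in the first 3 columns and 0 in the last 3.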

How the data were processed

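Livers of 42 mice were sequenced from stranded TruSeq libraries. The authors aligned reads to UCSC mm10 with Bowtie2, counted them per gene with featureCounts, normalised them with DESeq2 and deposited 6 tables, one per comparison, whose signal values are gene counts divided by size factors. The versions of these tools, their annotation and whether counting used strand were not given in the sources used here. Columns of fold changes and p-values in the same tables hold the authors' own comparisons and were not used. Whole reads were recovered from the deposited values, of which 100% came out whole within 0.1 reads, with 15992525 to 43841120 reads per library.

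Each comparison was fitted within its own table with limma 3.58.1 (R 4.3.3) on log2(normalised count + 1), over genes with a mean normalised count of at least 5, with Benjamini-Hochberg adjustment over all genes tested and calls at an adjusted p under 0.1. The pseudocount understates the change of low genes. Differences between diet or RvE1 effects were tested as interactions over 28 libraries. edgeR 4.0.16 and DESeq2 1.42.0 were run on the recovered reads as alternatives, as were other scalings, filters, weights and a random block on the number opening each mouse identifier. Only the main limma fit was tested on simulated counts, and the alternatives were not. Groups came from the labels, each sample being 1 mouse.

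The 42 genes and the other gene lists were chosen with earlier results of these data known. Values were given for called genes in order of adjusted p, at most 12 per comparison, for the 5 smallest p-values where fewer than 5 were called, and for Cpt1a, Bdh1, Ehhadh, Acaa1b, Pex11a and Pdk4 in both diet comparisons. Hadha and Acox3 in KO mice, and values set beside another genotype's, were added after their values were seen. Promoter windows were the 250 bases before the RefSeq start (GRCm38.p6). No promoter window was matched for Acaa2, Decr1, Crat, Hsd17b4, Vnn1 and Angptl4.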

Additional observations from a re-analysis of the deposited data

Results flagged for a closer look

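Within groups of 7 mice, the gap between the highest or lowest mouse and its nearest neighbour, as a share of the group's range, passed Dixon's 95% critical value in 16 of 198 gene and group pairs checked, where chance gives about 1 in 20. Single high mice stood apart in Acadl in WT obese+RvE1 (0.584), Acads in KO lean (0.573), Acox3 in WT lean (0.639), Acsl3 in KO obese+RvE1 (0.628), Acsl4 in KO lean (0.578), Echs1 in KO lean (0.587), Mlycd in WT obese+RvE1 (0.630) and Pdk4 in KO obese+RvE1 (0.638). Single low mice stood apart in Acad10 in WT lean (0.571), Acadm in KO obese (0.575), Cpt1a in WT lean (0.717), Cpt2 in WT obese (0.746), Crat in KO obese+RvE1 (0.690), Hadhb in WT obese+RvE1 (0.583), Pecr in KO obese (0.583) and Scp2 in KO obese (0.588). For Pdk4 the high mouse had 1850 normalised counts and the other 6 had 148 to 370, and for Cpt1a the low mouse had 13351 and the others 17617 to 19657.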

How the results depend on the processing

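No paired analysis was made because each group holds different mice and the labels give no pairs between groups. Only 1 of 17 identifier numbers occurs in more than 1 group (KO obese and KO obese+RvE1). Replicate numbers used below follow the order in which the samples of a group were listed. In the KO lean against WT lean comparison, 6 of the 42 genes were called (16.3% of all genes), 15 with library quality weights (33%), 11 with DESeq2 (20.2%), and 0 with the identifier block (0.023%), at an adjusted p under 0.05 (5.51%) or above 1.5-fold (6.65%), where the percentages here and in the next comparisons are the share of all genes called under the same setting. Leaving out 1 mouse gave 0 to 13, with 0 without WT lean replicate 2 or 5 or KO lean replicate 6, 1 without KO lean replicate 4, 2 without KO lean replicate 2, 3 without WT lean replicate 7 or KO lean replicate 3, 10 without WT lean replicate 6 and 13 without KO lean replicate 5. In KO obese against KO lean, 14 were called (24.1%), 23 with weights (40.4%), 8 with the block (7.44%), 9 at an adjusted p under 0.05 (14.5%) and 7 above 1.5-fold (10.4%), and leaving out 1 mouse gave 8 to 17 (8 without KO obese replicate 3, 9 without KO obese replicate 7). In WT obese against WT lean, 7 were called (6.27%), 12 with weights (11.5%), 3 with the block (1.99%), and 4 at equal totals (3.64%), at an adjusted p under 0.05 (3.3%) or above 1.5-fold (3.8%), and leaving out 1 mouse gave 4 to 8 (4 without WT obese replicate 6). The diet by genotype difference gave 0 (0.00718%), 5 with weights (18.4%) and 2 with DESeq2 (9.38%), and 0 to 3 leaving out 1 mouse (1 without WT obese replicate 1, 3 without KO lean replicate 5). The other comparisons gave 0 under every alternative run. Over 14 refits that each left out 1 mouse, the WT diet calls of Pdk4, Acsl1 and Hadh were lost in 10, 9 and 6. Among the KO diet calls, Hadha and Acox3 were lost in 10, Cpt2 and Scp2 in 8, Angptl4 in 3 and Acsl5 in 1. Among the lean genotype calls, Acaa1a and Acad10 were lost in 10, Acsl3 in 9, and Acads, Acsl5 and Mlycd in 4. The other diet calls held in every refit. The mitochondrial minus peroxisomal difference moved to 0.175 in WT and 0.218 in KO mice with enzymes of both compartments counted as peroxisomal. Signs were checked only for the genes named in a comparison, and among these they turned only for uncalled values. In KO mice Bdh1 was 0.13 at equal totals, 0.0062 after length and GC correction and -0.093 to 0.039 leaving out 1 mouse. Cpt1a was 0.066 and Pex11a 0.053 in KO mice at equal totals. In WT mice Bdh1 was -0.022 to 0.125 and Pex11a -0.054 to 0.182 leaving out 1 mouse. The cause was not tested.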
